A study of Danio rerio with 12 samples.

Results

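The wild-type kidneys of the 2 experiments in this series were set against each other, CEN wild types (CEN WT) minus cebpd wild types (cebpd WT), as the titles of the samples assign them. The comparison uses 6 of 12 RNA-seq libraries, 3 per group. All came from adult male zebrafish of the EK strain, 4 to 12 months old, that had been bathed in 0.5 to 0.7 µM tamoxifen for 17 h to ablate heart muscle cells, and whole kidneys were snap-frozen 7 days after the incubation. The groups therefore share the heart injury, and no fish without injury were included. cebpd WT are the +/+ fish of the design's cebpd experiment and CEN WT the +/+ fish of its CEN experiment, where CEN is known from the study as an enhancer linked to cebpd, a transcription factor gene of the C/EBP family. The other 6 libraries are the homozygous knockouts, cebpd KO and CEN KO. The labels do not name the ablation transgene or its driver, nor a litter, a date or the number of fish behind a library, and nothing but the title and the design's wording separates both wild-type groups. Experiment and group thus cannot be told apart, and p-values measure only the spread between libraries, which may be technical.

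The adult zebrafish kidney combines filtering nephrons with the main blood-forming marrow of the fish and with the steroid-producing interrenal tissue. Its proximal tubule takes back amino acids, peptides, phosphate and sugar and makes glucose, its distal tubule handles salt and acid, and its marrow holds erythroid, myeloid and lymphoid cells side by side. In such bulk tissue, fewer cells of a type and less RNA per cell cannot be told apart. The markers of kidney and marrow were present, since cdh17, a pan-tubule adhesion gene, held 2736, 4108 and 3167 CPM in cebpd WT and 2820, 3191 and 3835 CPM in CEN WT. lyz, a myeloid lysozyme gene, held 963, 1489 and 1555 CPM in the first group and 2929, 1606 and 1704 CPM in the second. The 6 libraries held 16580032 to 17553099 counts in genes. Values are CPM, that is scaled counts relative to the size of the library, and 3 counts correspond to 0.157 to 0.19 CPM. On log2 CPM, Pearson's r across genes was 0.979 to 0.984 among cebpd WT libraries and 0.984 to 0.989 among CEN WT libraries. Between the groups it was 0.949 to 0.961.

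Of 11840 genes tested by edgeR's quasi-likelihood test, 2961 passed an adjusted p of 0.05 and are described as called, which is 25% of all genes. Of these, 1287 were higher in CEN WT (10.9%) and 1674 lower (14.1%). Log2 fold changes are CEN WT minus cebpd WT, with their standard error (SE), so that negative values are lower in CEN WT. CPM values with ± are the mean and SD of the 3 libraries of a group (n = 3), cebpd WT first. The median size of a called difference was 0.86 on the log2 scale. At least 2-fold differences were called for 1145 genes (9.67%), of which 532 were higher (4.49%) and 613 lower (5.18%), and at least 4-fold ones for 81 and 131 genes. The median over all genes tested was 0.01 on that scale. Groups did not overlap for 5494 genes (46.4%), among them 2913 of the 2961 called. With 1 library left out the number of calls was 1630 without CEN WT replicate 1 and 1890 without cebpd WT replicate 3, and 2001 to 2242 without each of the others. By chromosome, the share of tested genes that were called ran from 20.2% on chromosome 25 to 28.7% on chromosome 6, and was 24.7% on chromosome 24, which carries cebpd.

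**Figure D1:**
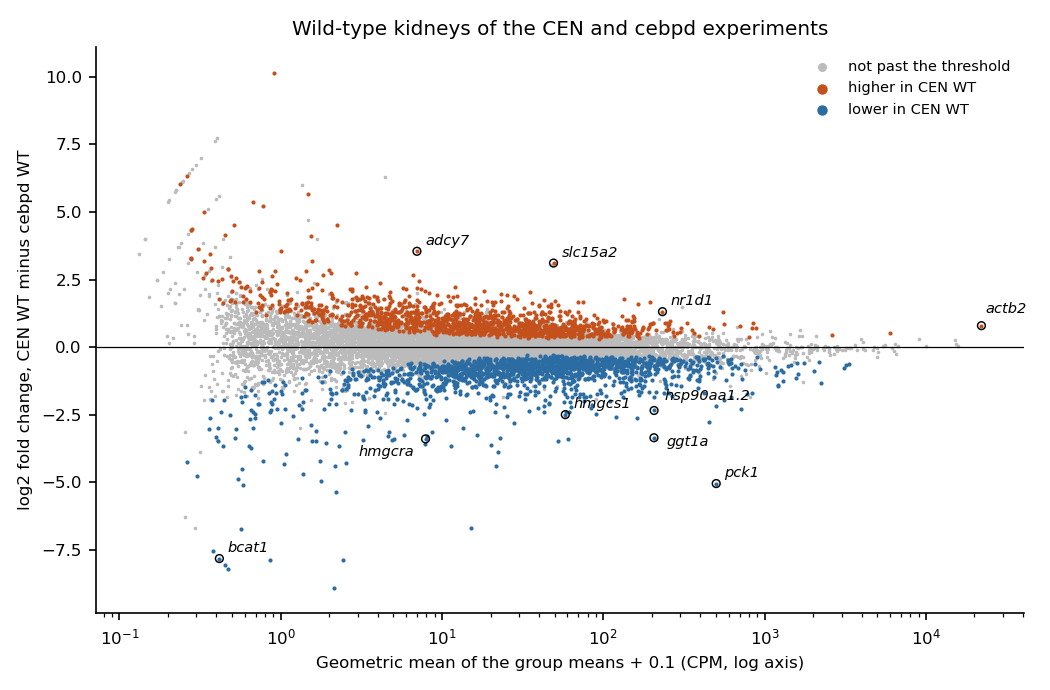
Log2 fold change of each of 11840 genes, CEN WT minus cebpd WT, against the geometric mean of both group means in CPM (log axis). Orange points were called higher in CEN WT (1287 genes) and blue points lower (1674 genes). The fitted values of genes at 0 in a group, such as bcat1, depend on the prior count and are not sizes.

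Among proximal tubule genes, a gluconeogenic enzyme and a peptidase were far lower in CEN WT and a peptide transporter far higher. pck1, the cytosolic phosphoenolpyruvate carboxykinase that commits carbon to glucose synthesis, stood at 3235, 3087 and 2323 CPM in the cebpd WT libraries and 109, 53.6 and 98.9 CPM in CEN WT. Every cebpd WT library lay above every CEN WT library, and the fall of 33.1-fold was on the log2 scale -5.05 ± 0.61 (SE, adjusted p 0.000424). In cebpd WT pck1 ranked 39th among all transcripts by CPM, and in CEN WT 1765th. ggt1a, a brush border enzyme that splits glutathione, stood at 660.4, 721 and 594 CPM in the cebpd WT libraries and 73.3, 75.6 and 44.4 CPM in CEN WT. These groups were also apart, with a 10.2-fold fall and a log2 fold change of -3.35 ± 0.24 (SE, adjusted p 2.53e-05). slc15a2, which encodes a peptide transporter of the apical membrane, stood at 16.9, 15.8 and 17.3 CPM in the cebpd WT libraries and 145, 127 and 159.8 CPM in CEN WT. It was 8.63-fold higher in CEN WT, on the log2 scale 3.11 ± 0.21 (SE, adjusted p 2.53e-05), with libraries of each group close together.

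Taken as a list, 37 proximal tubule genes were tested and moved in both directions, 8 called higher and 9 lower. That is 45.9% called, against 25% of all genes, with a median of -0.17 against 0.01 for all genes. Summed over the list, CPM was 20840 to 28810 CPM in cebpd WT and 16580 to 23520 CPM in CEN WT. Higher in CEN WT were the neutral amino acid transporter gene slc6a19a.1 (93.6 ± 14.3 against 286 ± 44.1 CPM, log2 1.61 ± 0.18 SE, adjusted p 0.000285), the hydroxyacid oxidase gene hao2 (log2 1.61 ± 0.24 SE, adjusted p 0.00107) and the endocytic adaptor gene dab2 (619 ± 104 against 1144 ± 88.6 CPM, log2 0.89 ± 0.16 SE, adjusted p 0.00284). hnf1ba, a transcription factor gene of the nephron, was also higher (log2 0.76 ± 0.18 SE, adjusted p 0.0103). Lower were the phosphate transporter gene slc20a1b (396 ± 91.8 against 182 ± 33 CPM, log2 -1.12 ± 0.18 SE, adjusted p 0.00171), the organic anion transporter gene slc22a7b.1 (log2 -1.01 ± 0.22 SE, adjusted p 0.00717) and the glycine decarboxylase gene gldc (log2 -0.87 ± 0.20 SE, adjusted p 0.00981). Some genes that define the segment did not pass. The glucose transporter gene slc5a2 was at log2 0.20 ± 0.25 (SE, adjusted p 0.591) and the endocytic receptor gene lrp2a 0.74 ± 0.29 (SE, adjusted p 0.0785). lrp2a did pass by DESeq2 and with the 6 wild-type libraries alone. Its adjusted p under all alternatives lay between 0.0201 and 0.24.

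In the distal nephron 3 of 37 genes were called higher and 7 lower, with a median of 0.04. That is 27% of the list, close to the 25% of all genes, so the genes named here are single genes and not a result on the segment. rhbg, an ammonia transporter gene, was lower (68.3 ± 8.47 against 36.2 ± 2.14 CPM, log2 -0.92 ± 0.18 SE, adjusted p 0.00361), as was the tight junction gene cldnb (log2 -1.74 ± 0.42 SE, adjusted p 0.012), while cldn8, another claudin gene, was higher (log2 0.80 ± 0.15 SE, adjusted p 0.00372). Genes of the sodium pump, which drives transport along the whole nephron, were lower. atp1b1a, a beta subunit gene, stood at 3656, 4835 and 3791 CPM in the cebpd WT libraries and 2262, 2492 and 2395 CPM in CEN WT, and the log2 fold change was -0.78 ± 0.16 (SE, adjusted p 0.0045). atp1a1a.1, an alpha subunit gene, changed by -0.88 ± 0.15 (SE, adjusted p 0.00195), whereas the alpha subunit gene atp1a1a.4 was at log2 -0.29 ± 0.18 (SE, adjusted p 0.26). These alpha genes are close paralogs, so the split of reads between them is uncertain.

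Genes of the glucocorticoid response, the cell's reply to cortisol, were not moved one way. Of 22 tested, 4 were called higher and 5 lower (40.9% called, against 25% of all genes), with a median of 0.01. The kinase gene sgk1, which raises sodium transport, stood at 1800.1, 2637 and 1570.0 CPM in the cebpd WT libraries and 727, 1006 and 491 CPM in CEN WT, without overlap, a log2 fold change of -1.43 ± 0.29 (SE, adjusted p 0.00475). Its paralog sgk2b (log2 -2.55 ± 0.28 SE, adjusted p 0.000246), the mTOR inhibitor gene ddit4 (log2 -1.44 ± 0.19 SE, adjusted p 0.000676) and fkbp5, a chaperone of the receptor (2289 ± 383 against 1136 ± 272 CPM, log2 -1.01 ± 0.21 SE, adjusted p 0.00491), were lower as well. Another paralog, sgk2a, went the other way and was called higher, at log2 0.913 to 1.08 under 14 alternatives. The glucocorticoid receptor gene nr3c1 itself was higher (62.9 ± 8.4 against 116 ± 4.54 CPM, log2 0.89 ± 0.18 SE, adjusted p 0.00455). Also higher were tsku, a secreted leucine-rich repeat protein gene (17.2 ± 3.87 against 71.7 ± 2.13 CPM, log2 2.06 ± 0.19 SE, adjusted p 8.73e-05) and the metal-binding protein gene mt2 (log2 1.66 ± 0.31 SE, adjusted p 0.00342).

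**Figure D2:**
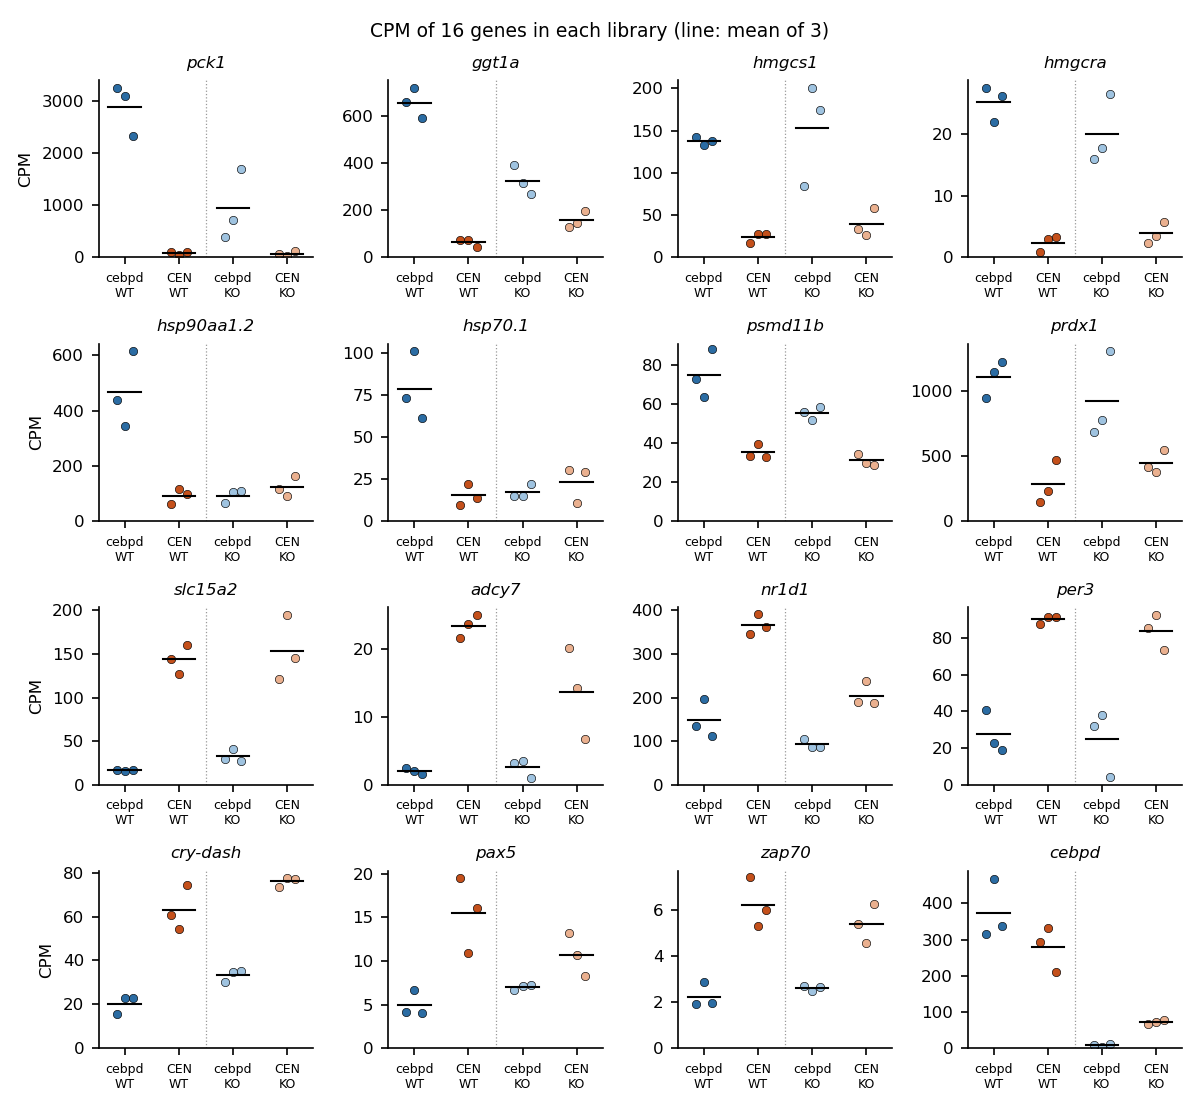
CPM of 16 genes in every library, with the wild types left of the dotted line, the knockouts of the same experiments right of it, and a bar at the mean of 3 libraries. In 15 of the 16 panels the 3 cebpd WT and 3 CEN WT points do not overlap, and cebpd is the exception. This count follows from the choice of genes, since the 15 were all called and 2913 of the 2961 called genes do not overlap. Of all genes tested, 46.4% do not overlap.

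Most cholesterol synthesis genes were lower in CEN WT, from early to late steps of the pathway. All 19 enzyme genes of the pathway that were tested lay below 0 in CEN WT, as 49.3% of all genes did, with a median of -1.26. Of the 19, 14 were called lower, where 14.1% of all genes were. hmgcs1, which makes the precursor HMG-CoA, stood at 143, 133 and 138 CPM in the cebpd WT libraries and 16.9, 28.3 and 28.1 CPM in CEN WT, a 5.65-fold fall with a log2 fold change of -2.50 ± 0.35 (SE, adjusted p 0.000836). hmgcra, which encodes the rate-limiting reductase, stood at 27.4, 21.9 and 26.1 CPM in the cebpd WT libraries and 0.824, 2.98 and 3.34 CPM in CEN WT, a 10.5-fold fall with log2 -3.40 ± 0.45 (SE, adjusted p 0.000676). Neither gene had overlapping groups. Downstream, the mevalonate kinase gene mvk (log2 -1.90 ± 0.42 SE, adjusted p 0.00747), the lanosterol synthase gene lss (log2 -1.60 ± 0.27 SE, adjusted p 0.00195), the demethylase gene cyp51 (log2 -1.83 ± 0.43 SE, adjusted p 0.0097) and the sterol oxidase genes msmo1 (log2 -1.97 ± 0.33 SE, adjusted p 0.00188) and sc5d (log2 -1.46 ± 0.24 SE, adjusted p 0.00165) were lower. The squalene genes fdft1 and sqlea did not pass, at log2 -0.39 ± 0.36 and -1.26 ± 0.54 (SE, adjusted p 0.45 and 0.105). sqlea did pass with the replicate number as a block and with the 6 wild-type libraries alone. Its adjusted p under the alternatives lay between 0.0311 and 0.304.

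Regulators and importers of sterol showed the same direction in part. insig1, which holds back SREBP, the factor that switches the pathway on, and is itself an SREBP target, was lower (37.2 ± 6.38 against 10.4 ± 0.819 CPM, log2 -1.85 ± 0.20 SE, adjusted p 0.000216). The low-density lipoprotein receptor gene ldlrb was lower (log2 -2.13 ± 0.39 SE, adjusted p 0.00286), and so was ldlra (log2 -1.73 ± 0.40 SE, adjusted p 0.0101). The SREBP genes themselves did not pass, srebf1 at log2 -0.58 ± 0.57 and srebf2 at log2 -0.48 ± 0.23 (SE, adjusted p 0.483 and 0.146). Over the whole lipid and sterol list 23 of 63 genes were called lower and 3 higher, where 14.1% and 10.9% of all genes were. The list had 41.3% called, against 25% of all genes, and a median of -0.61. Its lower members included the fatty acid uptake gene cd36 (24.9 ± 9.54 against 2.53 ± 1.04 CPM, log2 -3.30 ± 0.34 SE, adjusted p 0.000167), the elongase gene elovl2 (log2 -2.91 ± 0.46 SE, adjusted p 0.0014) and acaca, the first enzyme of fatty acid synthesis (log2 -0.70 ± 0.15 SE, adjusted p 0.00751). Its 3 higher members were the adipogenic receptor gene pparg (log2 1.36 ± 0.39 SE, adjusted p 0.0253) and the fatty acid oxidation genes hadhaa (log2 0.54 ± 0.14 SE, adjusted p 0.0183) and cpt1aa (log2 0.47 ± 0.14 SE, adjusted p 0.028). The call of pparg was lost without any 1 library except cebpd WT replicate 1, that of cpt1aa without any except the same one, and that of hadhaa without cebpd WT replicates 1 or 3 or CEN WT replicate 3, with adjusted p of up to 0.0929, 0.102 and 0.0726.

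Chaperone genes of several cell compartments were lower in CEN WT. Of 57 heat shock and protein folding genes tested, 27 were called lower and 2 higher, with a median of -0.50. That is 50.9% called, against 25% of all genes, of which 14.1% were called lower and 10.9% higher. Summed CPM of the list was 20170 to 20920 CPM in cebpd WT and 14430 to 15970 CPM in CEN WT. In the cytosol, the inducible Hsp90 gene hsp90aa1.2 stood at 437, 344 and 614 CPM in the cebpd WT libraries and 60.1, 117 and 98 CPM in CEN WT. This is a 5.08-fold fall without overlap, a log2 fold change of -2.34 ± 0.32 (SE, adjusted p 0.000732). The inducible Hsp70 genes hsp70.1 (78.4 ± 20.3 against 15.2 ± 6.51 CPM, log2 -2.36 ± 0.40 SE, adjusted p 0.00195) and hsp70l (log2 -1.88 ± 0.33 SE, adjusted p 0.00234) and the Hsp70 partner bag3 (log2 -1.16 ± 0.20 SE, adjusted p 0.00223) were lower too. Hsp70 genes are close copies of each other, so their shares of reads are uncertain. The constitutive gene hspa8 was lower by less (4123 ± 273 against 2689 ± 209.7 CPM, log2 -0.62 ± 0.13 SE, adjusted p 0.00557), and hsp90ab1, the constitutive Hsp90 gene, was at log2 0.08 ± 0.14 (SE, adjusted p 0.703).

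The chaperones of mitochondria and of the endoplasmic reticulum were lower with narrow spread. hspd1, the mitochondrial Hsp60 gene, stood at 306, 315 and 407 CPM in the cebpd WT libraries and 100.4, 117 and 107 CPM in CEN WT, a 3.17-fold fall with log2 -1.66 ± 0.19 (SE, adjusted p 0.000319), and its cofactor gene hspe1 stood at 153, 170.1 and 202 CPM in the cebpd WT libraries and 53.5, 50.6 and 58.3 CPM in CEN WT, with log2 -1.69 ± 0.17 (SE, adjusted p 0.000167). The groups of both genes were far apart. All 4 tested mitochondrial chaperone genes were called lower, where 14.1% of all genes were, hspa9 among them (log2 -1.19 ± 0.17 SE, adjusted p 0.000931). Of 6 reticulum chaperone genes 5 were called lower, including the BiP gene hspa5 (606 ± 62.2 against 257 ± 51.1 CPM, log2 -1.24 ± 0.21 SE, adjusted p 0.00182), dnajb11 (log2 -1.34 ± 0.15 SE, adjusted p 0.000296) and hsp90b1 (log2 -1.06 ± 0.20 SE, adjusted p 0.00328). The CCT chaperonin, which folds actin and tubulin, had 1 call: 7 of 7 subunit genes lay below 0 but only tcp1 was called (log2 -0.43 ± 0.12 SE, adjusted p 0.02), and its call was lost without cebpd WT replicates 1 or 3 or CEN WT replicates 1 or 2 (adjusted p up to 0.0737). The master regulator gene hsf1 was at log2 -0.10 ± 0.20 (SE, adjusted p 0.73). The 2 higher members were hsf2, a related factor gene (log2 0.60 ± 0.14 SE, adjusted p 0.0117), and hspa12b, a distant Hsp70 relative of blood vessels (3.75 ± 0.236 against 15.8 ± 2.69 CPM, log2 2.08 ± 0.30 SE, adjusted p 0.000937).

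Proteasome genes, which encode the machine that degrades tagged proteins, all lay below 0. Of 40 tested, 40 were below 0, as 49.3% of all genes were, with a median of -0.52. Of the 40, 18 were called lower (45%, against 14.1% of all genes). Summed CPM was 4367 to 5931 CPM in cebpd WT and 3260 to 3504 CPM in CEN WT. psmd11b, a lid subunit gene, stood at 73.1, 63.6 and 88.3 CPM in the cebpd WT libraries and 33.3, 39.7 and 33 CPM in CEN WT, without overlap, a log2 fold change of -1.09 ± 0.14 (SE, adjusted p 0.000676). Regulatory particle genes were called in 13 of 20 cases and core particle genes in 4 of 15, with medians of -0.61 and -0.38. Among the core genes psmb5 was lower (log2 -0.65 ± 0.13 SE, adjusted p 0.0045), and the activator gene psme3 was also lower (log2 -1.12 ± 0.17 SE, adjusted p 0.00104). The number of calls depended on single libraries: it was 8 without cebpd WT replicate 3, 7 without CEN WT replicate 1 and 8 without CEN WT replicate 3, against 13 to 19 without each of the others. Genes of antigen presentation and the immunoproteasome, a separate set, had 0 of 13 calls and a median of 0.18. Of these, 5 had an unadjusted p under 0.05, all higher in CEN WT, and 3 passed by DESeq2 and 0 by limma-voom. cd74a, the invariant chain gene, was at log2 0.61 ± 0.22 (SE, adjusted p 0.0627) and passed under 4 of 14 alternatives.

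Oxidative phosphorylation genes lay below 0 by small amounts, and their share of lower calls was close to that of all genes. Of 81 tested, 78 lay below 0 and 13 were called (16%, against 14.1% of all genes), with a median of -0.34. The called genes included atp5ib of the ATP synthase (167 ± 29 against 63.4 ± 9.43 CPM, log2 -1.40 ± 0.18 SE, adjusted p 0.000648), ndufab1b of complex I (log2 -1.10 ± 0.23 SE, adjusted p 0.00559) and uqcrh of complex III (log2 -1.01 ± 0.21 SE, adjusted p 0.00566). Leaving out cebpd WT replicates 1, 2 or 3 left 10, 6 or 5 calls, and leaving out CEN WT replicates 1, 2 or 3 left 4, 6 or 7. They numbered 20 with the replicate number as a block and 20 with the 6 wild-type libraries fitted alone.

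Several enzymes that handle peroxide and thiols were lower. Of 14 such genes, a hand-picked subset, 6 were called lower and 0 higher, where 14.1% of all genes were called lower and 10.9% higher. prdx1, a peroxidase gene, stood at 943, 1144 and 1218 CPM in the cebpd WT libraries and 144, 233 and 467 CPM in CEN WT. The 3 CEN WT libraries differed among themselves by more than the cebpd WT libraries did, and all lay lower, with a log2 fold change of -1.97 ± 0.38 (SE, adjusted p 0.00358). The thioredoxin reductase gene txnrd1 (713 ± 49.5 against 332 ± 45.2 CPM, log2 -1.10 ± 0.15 SE, adjusted p 0.000815), its substrate txn (log2 -1.32 ± 0.25 SE, adjusted p 0.00378) and the glutathione peroxidase gene gpx1b (log2 -1.54 ± 0.35 SE, adjusted p 0.00884) were lower. In a subset of drug-metabolizing cytochrome P450 genes, picked after their values were seen and without the sterol and steroid enzymes of that family such as cyp51, calls were higher in 6 of 17 cases, with 1 lower. cyp2y3 (30.5 ± 1.32 against 90.4 ± 13 CPM, log2 1.57 ± 0.23 SE, adjusted p 0.000911), cyp2ad3 (log2 1.15 ± 0.16 SE, adjusted p 0.000807) and cyp2p6 (log2 1.05 ± 0.18 SE, adjusted p 0.00199) were higher. The 1 lower gene of the subset was cyp2k18 (log2 -2.80 ± 0.68 SE, adjusted p 0.012), whose call was lost without CEN WT replicate 1 (adjusted p 0.0571). cyp1a, the classic target of dioxin-like compounds, was at log2 0.02 ± 0.21 (SE, adjusted p 0.948). The xenobiotic and oxidative stress list as a whole had 9 higher and 14 lower of 60, with a median of -0.19.

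Circadian clock genes were called more often in the higher than in the lower direction in CEN WT. The clock is a loop in which Clock and Bmal proteins switch on period, cryptochrome and Rev-erb genes, whose products switch them off. Of 39 clock genes tested, 14 were called higher and 4 lower, with a median of 0.48. That is 46.2% called, against 25% of all genes, of which 10.9% were called higher and 14.1% lower. nr1d1, a Rev-erb gene, stood at 135, 196 and 112 CPM in the cebpd WT libraries and 345, 392 and 363 CPM in CEN WT, a log2 fold change of 1.31 ± 0.19 (SE, adjusted p 0.001), and per1b, a period gene, at 115, 114 and 91.5 CPM in the cebpd WT libraries and 215, 224 and 235 CPM in CEN WT, with log2 1.08 ± 0.16 (SE, adjusted p 0.0012). In both genes the lowest CEN WT library lay above the highest cebpd WT library. cry-dash, a light-dependent DNA repair gene of the cryptochrome family, stood at 15.4, 22.8 and 22.8 CPM in the cebpd WT libraries and 60.6, 54.2 and 74.6 CPM in CEN WT, without overlap (log2 1.64 ± 0.17 SE, adjusted p 0.000177). cry3 (log2 1.35 ± 0.15 SE, adjusted p 0.000246), cry5 (log2 1.27 ± 0.19 SE, adjusted p 0.00115), cry1a (log2 0.75 ± 0.13 SE, adjusted p 0.00191), the Rev-erb gene nr1d4b (log2 2.21 ± 0.31 SE, adjusted p 0.000807) and the output factor gene tefa (108 ± 15.8 against 208 ± 25.6 CPM, log2 0.94 ± 0.14 SE, adjusted p 0.00108) were higher as well. cry2b was lower (log2 -0.80 ± 0.17 SE, adjusted p 0.0057).

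The activators of the loop had 1 call. Of 6 Clock and Bmal type genes, arntl2 alone was called, and it was lower (log2 -1.02 ± 0.30 SE, adjusted p 0.0287). clocka was at log2 -0.11 ± 0.54, clockb 0.17 ± 0.34, arntl1a -0.23 ± 0.23 and arntl1b 0.25 ± 0.44 (SE, adjusted p 0.901, 0.748, 0.483 and 0.709). Calls of higher clock genes numbered 9 without cebpd WT replicate 3 and 11 to 14 without each of the other libraries. The calls of per2 (log2 0.89 ± 0.27 SE, adjusted p 0.0299), per3 (log2 1.72 ± 0.54 SE, adjusted p 0.0366) and arntl2 were lost in 4, 5 and 5 of the 6 cases in which 1 library was left out, with adjusted p of up to 0.111, 0.126 and 0.112. In per3 the cebpd WT libraries stood at 40.6, 22.7 and 19.1 CPM and the CEN WT libraries at 87.6, 91.8 and 91.6 CPM. No group overlapped the other in per3. The labels give no hour of collection.

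**Figure D3:**
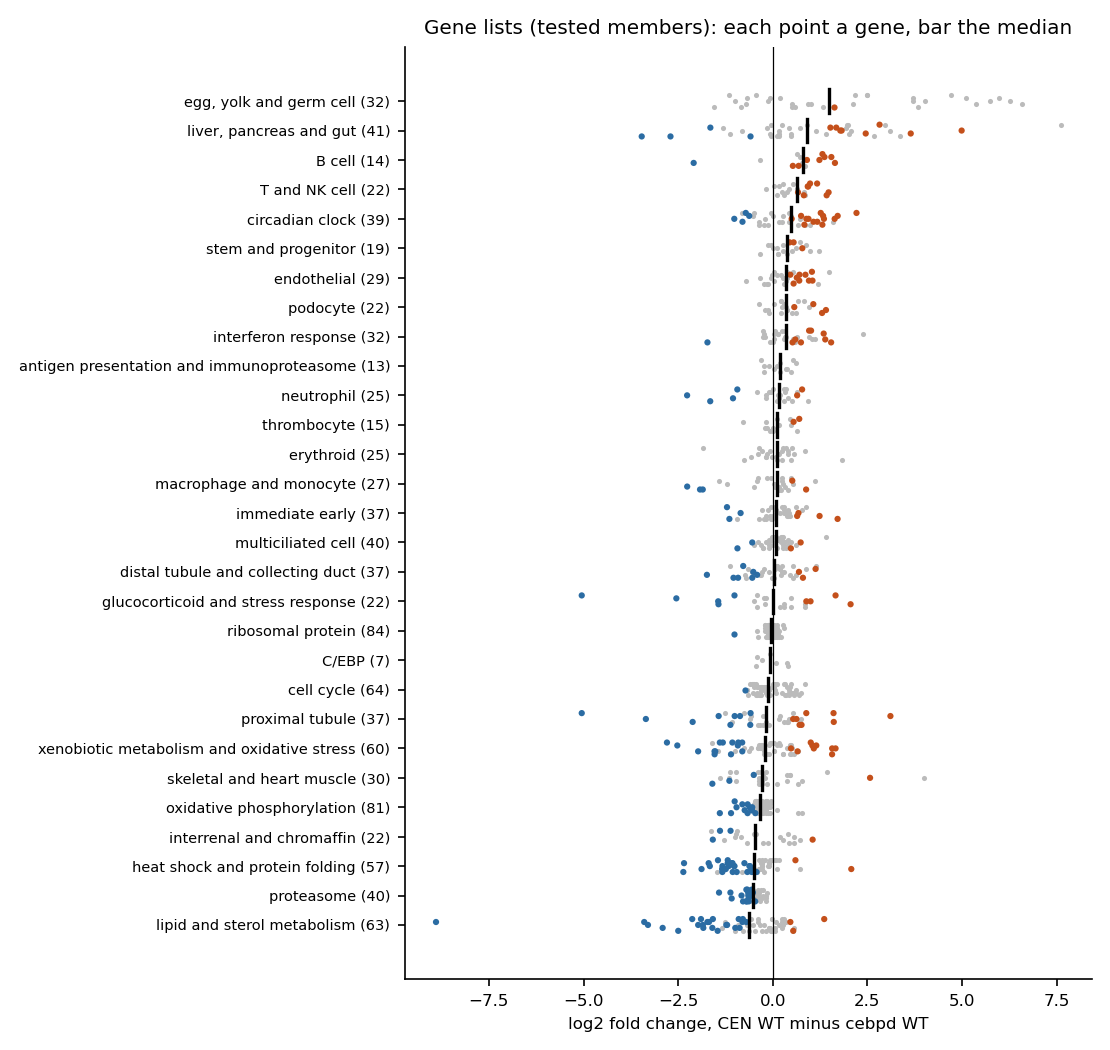
Log2 fold changes, CEN WT minus cebpd WT, of the tested members of 29 gene lists (number tested in brackets), ordered by the median (black bar). Orange and blue points were called higher and lower, and grey points did not pass. Lipid and sterol, proteasome and chaperone lists have medians of -0.61, -0.52 and -0.50, and the B cell and T cell lists 0.81 and 0.64.

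Among genes of marrow cells, those of lymphocytes were called mostly in the higher direction in CEN WT. Of 14 B cell genes 8 were called higher and 1 lower, with a median of 0.81. That is 64.3% called, against 25% of all genes, of which 10.9% were called higher and 14.1% lower. pax5, the factor that fixes B cell identity, stood at 4.22, 6.66 and 4.02 CPM in the cebpd WT libraries and 19.5, 10.9 and 16.1 CPM in CEN WT, without overlap (log2 1.64 ± 0.27 SE, adjusted p 0.00166). The antigen receptor recombinase genes rag1 (log2 1.23 ± 0.25 SE, adjusted p 0.00535) and rag2 (4.86 ± 0.47 against 12.5 ± 2.47 CPM, log2 1.37 ± 0.20 SE, adjusted p 0.00108), the surface protein gene cd81a (log2 0.90 ± 0.15 SE, adjusted p 0.00182) and the factor gene irf4a (log2 1.31 ± 0.28 SE, adjusted p 0.00694) were higher. The gene listed as cd22, a B cell lectin, was lower (17 ± 2.89 against 4 ± 1.63 CPM, log2 -2.09 ± 0.35 SE, adjusted p 0.00182). Summed CPM of the list was 1063 to 1332 CPM in cebpd WT and 1282 to 1591 CPM in CEN WT, so the ranges of the groups overlapped. T and NK cell genes were few in counts: 8 of 22 were called higher and 0 lower, 21 lay above 0, and the median was 0.64. That is 36.4% called, against 25% of all genes, of which 49.3% lay below 0. zap70, a kinase of the T cell receptor, stood at 1.91, 2.85 and 1.95 CPM in the cebpd WT libraries and 7.41, 5.28 and 5.99 CPM in CEN WT, without overlap (log2 1.48 ± 0.24 SE, adjusted p 0.00152). The kinase gene itk (log2 0.99 ± 0.26 SE, adjusted p 0.0183) and the cytokine receptor gene il7r (log2 0.92 ± 0.25 SE, adjusted p 0.0186) were higher as well. The call of itk was lost without cebpd WT replicates 2 or 3 or CEN WT replicates 1 or 3, and that of il7r without replicate 1 of either group, with adjusted p of up to 0.0758 and 0.0827. Leaving out cebpd WT replicates 1, 2 or 3 left 3, 4 or 2 T and NK calls, and leaving out CEN WT replicates 1, 2 or 3 left 2, 5 or 2. It was also 2 with a filter of 10 CPM in 3 libraries.

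Of neutrophil genes 24% were called, close to the 25% of all genes, and of macrophage and monocyte genes 18.5%, whereas no erythroid gene was called by edgeR. Of 25 neutrophil genes 2 were called higher and 4 lower, with a median of 0.15. The granule genes mpx (322 ± 55.9 against 424 ± 58.7 CPM, adjusted p 0.232) and lyz (adjusted p 0.106) did not pass, while the oxidase gene cybb was higher (log2 0.65 ± 0.15 SE, adjusted p 0.0108). Lower were the matrix protease genes mmp9 (378 ± 139 against 120.2 ± 51.6 CPM, log2 -1.65 ± 0.34 SE, adjusted p 0.00541) and mmp13a (log2 -0.94 ± 0.18 SE, adjusted p 0.0035) and the arginase gene arg2 (184 ± 22.7 against 38.3 ± 1.74 CPM, log2 -2.26 ± 0.27 SE, adjusted p 0.000353), none of which is limited to neutrophils. Of 27 macrophage and monocyte genes 2 were called higher and 3 lower, with a median of 0.11, and the apolipoprotein gene apoeb was among the lower ones (log2 -2.26 ± 0.40 SE, adjusted p 0.00247). Of 25 erythroid genes 0 were called by edgeR, 1 had an unadjusted p under 0.05, and 1 passed by DESeq2 and 0 by limma-voom. The ranges of summed CPM were 12630 to 47450 CPM in cebpd WT and 26910 to 34330 CPM in CEN WT, where the lowest and the highest values both belonged to cebpd WT. hbaa1, an adult alpha globin gene, stood at 9205, 6582 and 26106 CPM in the cebpd WT libraries and 19905, 15159 and 14904 CPM in CEN WT, so cebpd WT spread over a wider range than CEN WT did. Stem and progenitor genes were called higher in 3 of 19 cases (15.8%, against 10.9% of all genes called higher, median 0.38), namely gfi1ab (log2 0.78 ± 0.16 SE, adjusted p 0.00539), fli1a and meis1b. Thrombocyte genes were called higher in 2 of 15 (13.3%, median 0.13), and these were fli1a and fli1b, which the endothelial list also holds. The call of fli1a was lost without cebpd WT replicate 3 or CEN WT replicate 2 (adjusted p up to 0.102). That of fli1b was lost without cebpd WT replicate 3 or CEN WT replicate 1 (adjusted p up to 0.0659), and that of meis1b under 6 of 14 alternatives. Cell cycle genes had 1 lower of 64 (median -0.13).

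Vessel and glomerular genes were called in the higher direction alone. Of 29 endothelial genes 9 were called higher and 0 lower (31% called, against 25% of all genes), with a median of 0.36. clec14a, a surface lectin gene of vessels, stood at 27.6, 31.8 and 33.1 CPM in the cebpd WT libraries and 67.3, 57.3 and 54.7 CPM in CEN WT, without overlap (log2 0.96 ± 0.14 SE, adjusted p 0.00108), while the vessel markers kdrl and cdh5 did not pass (log2 0.29 ± 0.23 and 0.21 ± 0.41, SE, adjusted p 0.379 and 0.743). Leaving out cebpd WT replicates 1, 2 or 3 left 5, 7 or 2 calls, and leaving out CEN WT replicates 1, 2 or 3 left 3, 3 or 9. Of 22 podocyte genes 4 were called higher and 0 lower, with a median of 0.36. That is 18.2% called, below the 25% of all genes, while 10.9% of all genes were called higher. The factor genes lmx1bb (log2 1.41 ± 0.28 SE, adjusted p 0.00421) and tcf21 (log2 1.07 ± 0.22 SE, adjusted p 0.00539) were among the 4, as single genes and not a result on podocytes. The slit diaphragm gene nphs1 did not pass (log2 0.38 ± 0.15, SE, adjusted p 0.0878), except with a filter of 10 CPM in 3 libraries (adjusted p 0.038). Interferon response genes had 8 higher and 1 lower of 32, with a median of 0.34. That is 28.1% called, close to the 25% of all genes, so the genes named next are single genes. The signal transducers stat1b (33.8 ± 3.04 against 86 ± 23.1 CPM, log2 1.35 ± 0.27 SE, adjusted p 0.00444) and stat2 (log2 0.96 ± 0.20 SE, adjusted p 0.00561) were higher. Of 37 immediate early genes, which answer to handling and stimulation within minutes, 18.9% were called, below the 25% of all genes. Among them egr2b (log2 1.71 ± 0.24 SE, adjusted p 0.000828) and klf2b (log2 0.68 ± 0.15 SE, adjusted p 0.00816) were among 4 higher, and atf3 (log2 -1.15 ± 0.24 SE, adjusted p 0.00564) and jun (log2 -0.85 ± 0.19 SE, adjusted p 0.00755) among 3 lower.

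Interrenal genes had a median below 0, and their calls depended on the test. Of 22 tested 3 were called lower and 1 higher by edgeR, with a median of -0.46. That is 18.2% called, below the 25% of all genes. At an unadjusted p under 0.05, 9 were lower and 2 higher, where 4497 of all 11840 genes passed. DESeq2 called 7 lower and 2 higher, and 3512 of all 11840 genes. star, which carries cholesterol into mitochondria for steroid synthesis, stood at 642, 849.9 and 605 CPM in the cebpd WT libraries and 555, 324 and 207 CPM in CEN WT and did not pass (log2 -0.95 ± 0.38, SE, adjusted p 0.0849 by edgeR), but passed with DESeq2, with the wild-type libraries alone and without CEN WT replicate 1 (adjusted p 0.0341 to 0.0456). Multiciliated cell genes had 2 higher and 2 lower of 40 (10% called, median 0.09), and muscle genes 1 and 3 of 30 (13.3% called, median -0.28). Both shares lay below the 25% of all genes. Genes of liver, pancreas and gut, which a whole-kidney dissection can carry along, had 8 higher and 4 lower of 41 (29.3% called, against 25% of all genes), with a median of 0.91 and summed CPM of 829 to 959 CPM in cebpd WT and 899 to 958 CPM in CEN WT. fabp10a, a liver fatty acid binding protein gene, stood at 61.8, 63.9 and 91.7 CPM in the cebpd WT libraries and 277, 310.1 and 162 CPM in CEN WT, without overlap (log2 1.79 ± 0.34 SE, adjusted p 0.00378). The ferroxidase gene cp was higher (log2 1.68 ± 0.28 SE, adjusted p 0.00192) and the apolipoprotein gene apoa2 lower (173 ± 14.5 against 15.7 ± 4.66 CPM, log2 -3.46 ± 0.59 SE, adjusted p 0.00201). The part of tissue carried along in the other differences was not tested. Egg, yolk and germ cell genes had 1 call of 32, piwil2 (log2 1.61 ± 0.22 SE, adjusted p 0.000815), a germline gene. Their median was 1.48, or 1.08 with 3 genes at 0 in a group set to the bound of 3 counts per library. The yolk gene vtg1 was high in single libraries of these fish labelled male, at 0.0562, 1.01 and 0.305 CPM in the cebpd WT libraries and 88.1, 0.575 and 16.8 CPM in CEN WT.

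Among the genes of largest difference were some nearly absent from 1 group. bcat1, a branched-chain amino acid transaminase gene, had 17, 26 and 38 counts in cebpd WT against 0 in each CEN WT library (adjusted p 0.00107), and tor1l1 had 19, 29 and 19 against 0 in each (adjusted p 0.000807). In the other direction zgc:198329 had 0 counts in all cebpd WT libraries and 188, 145 and 121 in CEN WT (adjusted p 0.000164). zgc:153142 had 48, 39 and 39 counts in cebpd WT and 3, 1 and 3 in CEN WT, and zgc:162331 had 31, 46 and 55 against 0, 1 and 0. zgc:162239 was high in CEN WT, with 2, 2 and 0 counts in cebpd WT and 70, 53 and 56 in CEN WT. In the knockouts zgc:198329 had 0, 0 and 0 counts in cebpd KO and 140, 72 and 104 in CEN KO, so it followed the experiment there as well. So did tor1l1 (26, 32 and 26 against 0 in each), zgc:162331 (55, 21 and 35 against 1, 1 and 0) and zgc:153142 (35, 24 and 51 against 4, 2 and 2). zgc:162239 had 3, 13 and 1 counts in cebpd KO and 55, 42 and 38 in CEN KO. bcat1 had 9, 15 and 9 against 1, 6 and 1 and did not pass there by edgeR (adjusted p 0.0692).

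Other large falls with counts in both groups were those of cx27.5, a gap junction gene (12.2 ± 1.98 against 0.29 ± 0.0207 CPM, 41.1-fold), the angiotensinogen gene agt (19.4-fold), the G protein regulator gene rgs8 (21-fold) and the galectin gene lgals2b (21.3-fold). slco1f3, an organic anion transporter gene, stood at 80.9, 85.5 and 87.5 CPM in the cebpd WT libraries and 1.26, 1.26 and 14.6 CPM in CEN WT. CEN WT replicate 3 was far above the others of that group and still below all of cebpd WT (log2 -3.89 ± 0.86 SE, adjusted p 0.00762). A large increase with counts in both groups was that of adcy7, an adenylate cyclase gene, at 2.42, 1.96 and 1.58 CPM in the cebpd WT libraries and 21.6, 23.6 and 24.9 CPM in CEN WT (11.7-fold, log2 3.55 ± 0.46 SE, adjusted p 0.000676). paqr5a, a membrane progestin receptor gene (5.22-fold), the complement gene c3b.2 (7.08-fold), the opioid-related receptor gene oprl1 (7.22-fold) and the aspartoacylase gene aspa (6.72-fold) were also higher, all without overlap.

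The C/EBP genes, to which both mutant lines relate, were not among the genes called. cebpd stood at 316, 466 and 337 CPM in the cebpd WT libraries and 294, 333 and 212 CPM in CEN WT, with overlapping groups and a log2 fold change of -0.42 ± 0.31 (SE, adjusted p 0.354). Of 7 genes on the C/EBP list 0 passed edgeR's test, 2 had an unadjusted p under 0.05, and 1 passed by each of DESeq2 and limma-voom. That gene, cebpz, is on the list by its name and is not read here as a difference in the family. It was at log2 -0.45 ± 0.15 (SE, adjusted p 0.0503) by edgeR, and its adjusted p under all alternatives lay between 0.037 and 0.168. None of the other listed genes passed by DESeq2 or limma-voom. cebpa was at log2 0.09 ± 0.21 and cebpb -0.30 ± 0.24 (SE, adjusted p 0.776 and 0.402). rbbp8, a DNA repair gene, was at log2 -0.23 ± 0.36 (SE, adjusted p 0.671).

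The most abundant transcripts were nearly the same in both groups. Of the 50 genes of highest mean CPM in each, 44 were common, and these held 21.62 to 27.17% of counts in a library. Here CPM is a share of counted reads, which grows with transcript length, so genes are not ranked against each other by molecules. The common set holds 20 ribosomal protein genes, none of them called by edgeR, DESeq2 or limma-voom and 0 with an unadjusted p under 0.05, the elongation factor genes eef1a1l1 and eef2b, globins, and kidney genes such as cdh17, the mitochondrial carrier gene ucp1 and the chemokine gene cxcl12a. eef1a1l1 was the steadiest, at 14996, 15707 and 15648 CPM in the cebpd WT libraries and 15734, 15460.2 and 16782 CPM in CEN WT, with a coefficient of variation of 3.74% over the 6 libraries. hbaa1 varied most, with 46.3%, and the median of the 44 was 13% against 24.1% for all genes tested. Over the whole ribosomal protein list 1 of 84 was called, the rpl7-like gene rpl7l1 (log2 -1.03 ± 0.19 SE, adjusted p 0.00284), and the median was -0.04.

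Of the 44 common genes 5 were called (11.4%, against 25% of all genes). actb2, a cytoplasmic actin gene and the most abundant transcript in both groups, stood at 14748, 20601 and 14996 CPM in the cebpd WT libraries and 27881, 28039 and 31338 CPM in CEN WT, without overlap, a log2 fold change of 0.79 ± 0.18 (SE, adjusted p 0.00785). cxcl12a, which guides and retains blood cells, was higher (4987 ± 39.8 against 7101 ± 913 CPM, log2 0.51 ± 0.16 SE, adjusted p 0.0328), and its call was lost without any 1 library except CEN WT replicate 3 (adjusted p up to 0.11). hspa8, the tubulin gene tuba8l4 (log2 -0.65 ± 0.15 SE, adjusted p 0.0085) and atp1b1a were lower. In cebpd WT alone the top 50 held pck1, the aromatic amino acid decarboxylase gene ddc, 2 sodium pump genes, the tubulin gene tubb4b and si:ch73-359m17.9. ddc stood at 2958, 2958 and 2148 CPM in the cebpd WT libraries and 347, 859.8 and 2113 CPM in CEN WT, and CEN WT replicate 3 was near the lowest cebpd WT library (log2 -1.28 ± 0.48, SE, adjusted p 0.071). Without that library the adjusted p of ddc was 0.00578. In CEN WT alone the top 50 held the keratin gene krt8 (log2 0.46 ± 0.14 SE, adjusted p 0.0294), the profilin gene pfn1 (log2 0.42 ± 0.20, SE, adjusted p 0.139), 3 ribosomal protein genes and si:ch211-5k11.6 (hbaa2, an alpha globin gene, in RefSeq). The call of krt8 was lost without any 1 library except cebpd WT replicate 2 (adjusted p up to 0.0961). With 20 genes per group 19 were common, and with 100 per group 84.

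**Figure D4:**
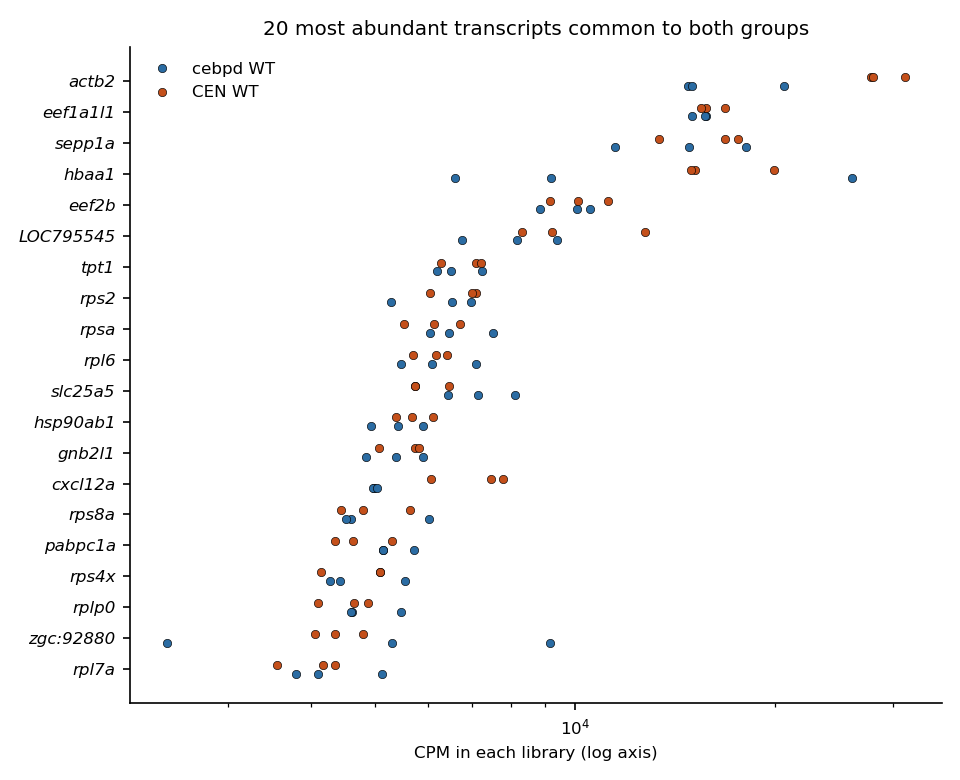
CPM (log axis) in each of the 6 wild-type libraries of the 20 most abundant transcripts in both groups, ordered by the lower of the group means. actb2 is separate between groups, hbaa1 and zgc:92880 (hbba2, a beta globin gene, in RefSeq) are spread in cebpd WT, and the points of eef1a1l1 lie close together.

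The knockouts of the same experiments give the same contrast of experiments in libraries that the wild types do not use. CEN KO minus cebpd KO had 1879 calls (15.9%), 870 higher (7.35%) and 1009 lower (8.52%). Of the 2961 genes called between the wild types, 2646 (89.4%) had the same sign there, against 68.8% of the genes not called, and 1105 (37.3%) were called in the same direction. These 1105 were 58.8% of the knockout calls, and 6 genes were called in opposite directions. The knockouts carry 2 different lesions, so this contrast adds the mutations to the experiments.

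By group, the knockouts showed the lower sterol genes with 17 of 19 cholesterol enzymes called, all 19 below 0 (49.1% of all genes were), and a median of -1.25. hmgcs1 was at log2 -1.97 ± 0.35 (SE, adjusted p 0.00503) there and pck1 at log2 -3.70 ± 0.57 (SE, adjusted p 0.00273). Proteasome genes were lower in 32 of 40 cases, with a median of -0.74, where 8.52% of all genes were called lower and 7.35% higher. Period and cryptochrome genes were higher in 9 of 12, against 7 in the wild types. Rev-erb genes were higher in 1 of 5, against 4 in the wild types, with medians of 0.23 and 1.31, and nr1d4b was at log2 0.06 ± 0.30 (SE, adjusted p 0.905) in the knockouts. slc15a2 was at log2 2.24 ± 0.20 (SE, adjusted p 0.000204). The chaperone list had a median of -0.15, with 12 lower and 3 higher. There hsp90aa1.2 stood at 64.7, 104 and 107 CPM in cebpd KO and 115, 91 and 161 CPM in CEN KO, with overlap (log2 0.41 ± 0.30, SE, adjusted p 0.364), and rgs8 was at log2 0.40 ± 0.64 (SE, adjusted p 0.692). Interrenal genes had a median of 0.79, opposite in sign to that of the wild types, and B cell genes 0.30, with 3 called higher. Whether lists differ between both contrasts was not tested, and among single genes the difference passed for 5 of 11840.

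**Figure D5:**
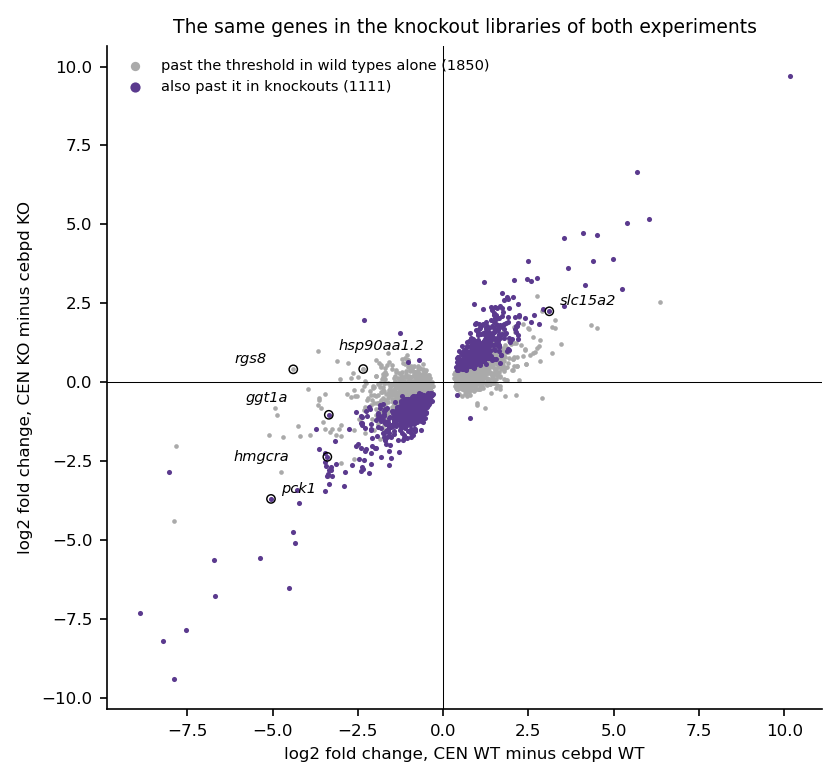
Log2 fold change, CEN KO minus cebpd KO, against CEN WT minus cebpd WT for the 2961 genes called between the wild types, with genes also called between the knockouts in purple. Most points, 2646 of 2961, have the same sign in both contrasts, and hsp90aa1.2 and rgs8 lie near 0 in the knockouts. The fitted values of genes at 0 in a group depend on the prior count.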

How the data were processed

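RNA-seq counts were analysed for 12 kidney libraries of 4 groups of 3. The deposited values are whole-number counts of reads per gene. Per the submitters' processing notes the tools named are Trim Galore 0.6.4, TopHat2 2.1.1 and HTSeq, with danRer10. The sources used here do not give their order, the annotation or the use of strand, so antisense, overlapping and closely related genes cannot be told apart with certainty. The deposited tables hold 14781 genes, and 5 summary lines were left out, among them reads in no gene, at 32.3 to 38.5% of all counted reads in the wild types.

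All 12 libraries were fitted with 4 group terms by edgeR 4.0.16 (quasi-likelihood test, TMM scaling, filterByExpr with a minimum count of 10, Benjamini-Hochberg adjustment over 11840 genes, R 4.3.3). Standard errors are the fold change divided by the square root of F. DESeq2 1.42.0 and limma-voom (limma 3.58.1) were alternatives, beside other scalings, filters, a replicate block, the 6 wild-type libraries alone and leaving out each library. The scripts were tested on simulated data. Same-numbered libraries deviated from their group means with r of -0.147, -0.148 and -0.152, which gives no sign of pairing by number. Deviations from a mean of 3 libraries depend on each other, so these values cannot decide it.

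Genes were named by a rule of size and list membership (153 genes), and 144 others were chosen after their values were seen. The gene lists were chosen with earlier results of these data known. Newer names and chromosomes come from RefSeq (GRCz12tu), which matched 14492 symbols and left 289 unmatched. A comparison of levels per coding length was planned and not made, since no lengths were used here. The limit of 3 counts covers counting error only.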

Additional observations from a re-analysis of the deposited data

Results flagged for a closer look

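Of the genes named, 3 differed between the contrast of the knockouts (CEN KO minus cebpd KO) and that of the wild types (CEN WT minus cebpd WT) by a test of the difference itself, adjusted over all 11840 genes by edgeR. ggt1a was lower in CEN WT by more than in CEN KO, a difference of 2.32 ± 0.32 (SE, adjusted p 0.0244) on the log2 scale. cebpd differed by 3.42 ± 0.46 (SE, adjusted p 0.0244), with the gene itself the target in one of the knockouts. rbbp8 differed by -4.54 ± 0.63 (SE, adjusted p 0.0244). All 5 genes past this test are counted in the comparison of the knockouts.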

How the results depend on the processing

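The number of genes called was 2742 to 3512 under the alternatives that kept all 3 wild-type libraries of each group, apart from 2473 with a filter of 10 CPM in 3 libraries. Leaving out 1 wild-type library at a time gave 1630 to 2242 calls, 720 to 931 of them higher and 910 to 1311 lower. The knockouts then shared 699 to 922 of the calls. Lower calls ran from 24 to 27 for chaperones, 7 to 19 for the proteasome, 19 to 24 for lipid and sterol genes and 4 to 10 for oxidative phosphorylation. Higher calls ran from 9 to 14 for the clock, 2 to 5 for T and NK cells and 2 to 9 for endothelium, and B cell calls were 7 in each case. Of the 50 most abundant transcripts 42 to 45 were then common, and 19 of 20 and 84 of 100. Oxidative phosphorylation calls were 20 with the 6 wild-type libraries alone. T and NK calls were 2 with the 10 CPM filter.

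With the replicate number as a block 3084 genes were called and 20 oxidative phosphorylation genes were lower. No wild-type library correlated best with its own number in the other group, which cannot decide whether the numbers pair the libraries.

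Among 4094 values of 297 named genes under 14 alternatives, 0 called values changed sign, 329 lost the call and 38 gained it. Of the 226 called named genes 148 were called under every alternative. Interrenal genes called lower numbered 3 by edgeR and 7 by DESeq2. The groups hold 3 libraries each, with 8 residual degrees of freedom in the fit. The cause of these shifts was not tested.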
